A study of Bos taurus with 27 samples.

Results

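The Lightgreen module is a set of 62 genes, of 24616 in the count table, that weighted correlation network analysis grouped because their levels moved together across the colon libraries of these calves. Its members were taken as the 62 Ensembl identifiers listed under that colour in the gene lists accompanying the study, and all of them were found in the count table. The members were thus chosen by co-expression in these same libraries, so their correlation with each other and their shared extremes are described below without a test. The study used such modules to ask whether groups of host genes followed the bacterial populations of the colon.

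Colon tissue came from 27 male Holstein calves, all sampled at 51 h of age and differing in the time of their first colostrum meal. That meal was given immediately after birth in TRT0, at 6 h in TRT6 and at 12 h in TRT12, with 9 calves in each treatment. Each library was 1 calf, so replicates were separate animals, and calves are called by the column of the count table that holds them. The gene counts summed to between 1163791 and 4202593 per calf (median 2215402), and the calf that matters most for these genes, 4122_2 of TRT6, had 1264884. The study reports far more sequenced reads per sample than these totals, and the reason for the gap was not examined. Levels are given as CPM, the counts of a gene relative to the total of its library after TMM scaling, with TMM factors of 0.887 to 1.15 (0.949 in 4122_2). In tissue homogenates such as these, fewer cells of a type and less RNA per cell cannot be told apart.

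A co-expression module is summarized by its eigengene, the first principal component of its members, which gives each calf a single value. Modules often gather genes of a cell type or a pathway, since these vary together with tissue composition or signalling. The correlations on which a module rests are computed over the animals, so a single animal with extreme values in many genes can also tie genes together.

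The 62 genes did not share 1 function. They fell into 7 groups by the known roles of their products, plus 7 genes for which no symbol was found. There were 10 genes of small GTPase signalling and the cytoskeleton, 7 of the cilium, centrosome and Hedgehog pathway, 8 of chromatin and transcription, 7 of ubiquitin transfer and endosomal traffic, 6 of metabolism and mitochondria, 10 of membrane, receptor and synapse proteins, and 7 of DNA repair and other roles. Most were low genes. Their mean levels lay between 0.637 and 83.3 CPM with a median of 10.4 CPM, below the median of 18.03 CPM over the 13943 genes that entered the tests, and together they held 0.105% of all counts. At least 1 CPM was reached in all 27 calves by 39 members. To be tested, a gene had to reach 1 CPM in 5 or more calves of every treatment, which 61 members did, the exception being C11H9orf50 (ENSBTAG00000019513).

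What the members shared was their level in calf 4122_2. Of the 62 members, 55 had their lowest level of all 27 calves in 4122_2 and 3 had their highest there, while 6.43% and 6.68% of the 13943 tested genes did so. No other calf held the lowest level of more than 2 members or the highest of more than 9. The median member lay 1.57 below the median of the other 26 calves on the log2(CPM + 1) scale in 4122_2, where the median tested gene lay at -0.0178. With the members at 0 counts set to 3 counts in that library, the median was -1.06. Of the 62 members, 58 were below the median of the other calves and 4 above it. The network was built from these same libraries, though the exact scale it used is not known, so these values are given as a description.

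**Figure D1:**
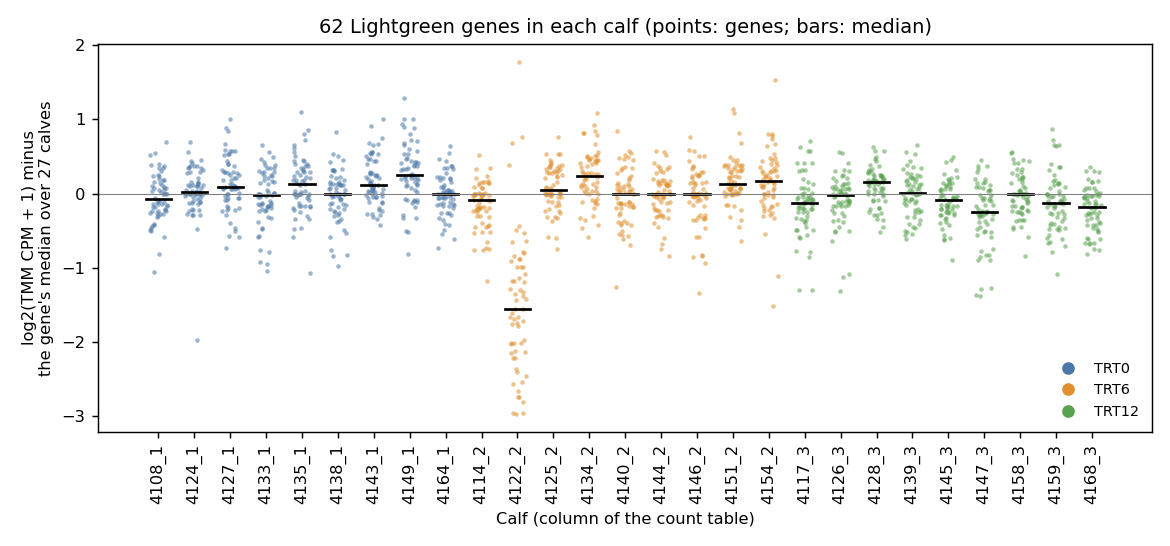
Deviation of each of the 62 Lightgreen genes from its own median over 27 calves, on the log2(TMM CPM + 1) scale (y axis), for each calf (x axis) coloured by treatment; points are genes and black bars their median in that calf. The median gene sat at -1.56 in calf 4122_2 and between -0.245 and 0.248 in each of the other 26 calves.

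Low counts limited how far below the others calf 4122_2 could be shown to lie. In its library 16 members had 0 counts, 17 had 1 to 3 counts and 29 had more than 3, and 3 counts stood for 2.5 CPM. The other calves had 0 counts in at most 1 member each. Of the 16 members at 0, 15 were at 0 in no other calf. Over all tested genes, 25 were at 0 in 4122_2 while reaching 1 CPM or more in each of the other 26 calves, and 11 of these were members. Other libraries with few counts also held such genes, up to 17 in 1 calf, but none of them was a member. A fold against 0 counts is given below as a lower bound against 3 counts in that library. A level given as a percent of the others' median has an exact Poisson 95% interval, which covers counting error only. For 2 of the 17 members with 1 to 3 counts this interval reached 100%, ATXN7L2 (0.604% to 133%) and TSG101 (7.40% to 105%). For the other 15 its upper end lay between 43.8% and 92.0%. Of the 16 members at 0 counts, HILPDA, ENSBTAG00000014319 and KCNH6 also reached 100%, with upper ends of 103.6%, 116.2% and 128%. The rest of those at 0 had upper ends from 43.08% (RASGRF2) to 97.85% (VWA2).

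The genes of small GTPase signalling and the cytoskeleton included the member furthest below the other calves and the most abundant member. RASGRF2 (ENSBTAG00000030259), an exchange factor that activates Ras and Rac, had 0 counts in 4122_2 and 1.73 to 13.03 CPM in the other 26 calves (median 7.14 CPM), which put it at least 2.85-fold lower. SPTBN5 (ENSBTAG00000006790), a beta spectrin of the membrane skeleton, also had 0 counts against 2.02 to 15.5 CPM, at least 2.74-fold lower than the median. RASSF6 (ENSBTAG00000011935), a Ras-association domain protein, had 0 counts against 2.91 to 11.3 CPM, at least 2.41-fold lower. None of the other 26 calves lacked counts for these genes. SORBS2 (ENSBTAG00000016486), an adaptor of actin and cell adhesions, had 1 count (0.834 CPM) against 2.60 to 8.23 CPM. The better counted genes of this group were lowest in 4122_2 as well. JMY (ENSBTAG00000025856), an actin nucleator, was at 8.34 CPM against 15.8 to 34.5 CPM, 2.74-fold below the median of the others. ASAP1 (ENSBTAG00000003185), a GTPase-activating protein for Arf, was at 17.5 CPM against 26.4 to 47.9 CPM, RHOBTB3 (ENSBTAG00000004413) at 15 CPM against 21.2 to 36.9 CPM, and CNN3 (ENSBTAG00000020345), the actin-binding calponin 3, at 15 CPM against 19.9 to 38.0 CPM.

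The other two genes of this group lay above the median of the other calves. RAB2A (ENSBTAG00000000948), a Rab GTPase of transport between the endoplasmic reticulum and the Golgi, was the most abundant member and had its highest level in 4122_2, 132 CPM against 59.5 to 105 CPM in the others. RACGAP1 (ENSBTAG00000012784), a GTPase-activating protein needed for cytokinesis, was at 44.2 CPM in 4122_2, inside the range of the other calves (26.1 to 44.3 CPM). Its level in 4122_2 was 132% of the others' median, with an interval of 99.2% to 173%.

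All 7 genes of the cilium, centrosome and Hedgehog group had their lowest level in 4122_2. FBF1 (ENSBTAG00000030175), a protein of the fibres that anchor the basal body, had 5 counts (4.17 CPM) against 8.66 to 29.1 CPM in the other calves and was 4.76-fold below their median. TTBK2 (ENSBTAG00000006470), a kinase that starts cilium assembly, was at 6.67 CPM against 13.1 to 34.3 CPM, 3.55-fold below the median. KIAA0556 (ENSBTAG00000006129), a protein of the ciliary base, was at 22.5 CPM against 27.9 to 59.8 CPM. Lower counts were found for the regulators of Hedgehog signalling. SUFU (ENSBTAG00000021068), which restrains the GLI transcription factors, had 2 counts and stood at 22.5% of the others' median (interval 2.72% to 81.1%). TULP3 (ENSBTAG00000015879), which carries receptors into the cilium, also had 2 counts (1.67 CPM) against 4.67 to 13.6 CPM. KIZ (ENSBTAG00000020988), a protein of the spindle poles, had 1 count, and WDPCP (ENSBTAG00000005151), a planar cell polarity effector, had 0 counts against 1.37 to 6.33 CPM, at least 1.51-fold below the median.

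Among the 8 genes of chromatin and transcription, 7 were lowest in 4122_2. MSL1 (ENSBTAG00000010375), the scaffold of a histone H4 acetyltransferase complex, was at 37.5 CPM against 43.1 to 60.5 CPM. POGK (ENSBTAG00000010775), a protein with a KRAB domain derived from a transposase, was at 35.8 CPM against 41.9 to 65.8 CPM. These genes were among the 5 most abundant members, and their 45 and 43 counts in 4122_2 made them better measured than most. TADA3 (ENSBTAG00000007961), an adaptor of the SAGA complex, was at 28.3 CPM and was the exception, since another calf was lower (range of the others 24.3 to 53.7 CPM). MBD5 (ENSBTAG00000019592), a methyl-CpG-binding domain protein, was at 12.5 CPM against 18.2 to 35.4 CPM. Of the low genes in the group, ING5 (ENSBTAG00000009123), a reader of histone methylation, had 1 count against 6.39 to 15.6 CPM, ATXN7L2 (ENSBTAG00000009042) had 1 count against 1.17 to 7.44 CPM, and the zinc finger gene ZNF212 (ENSBTAG00000000389) had 0 counts against 1.78 to 8.66 CPM.

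All 7 genes of ubiquitin transfer and endosomal traffic were lowest in 4122_2, and none was at 0. VTI1A (ENSBTAG00000006714), a SNARE of endosome and Golgi fusion, had 1 count (0.834 CPM) against 6.18 to 17.3 CPM, 8.39% of the median of the others with an interval of 0.213% to 46.8%. FBXW4 (ENSBTAG00000003579), an F-box subunit of a ubiquitin ligase, was at 5 CPM against 10.6 to 20.3 CPM, and DTX3 (ENSBTAG00000018002), a ubiquitin ligase of the Deltex family, at 3.33 CPM against 8.16 to 17.9 CPM. ARIH1 (ENSBTAG00000006708), a RING-between-RING ligase, was the second most abundant member and was at 36.7 CPM against 48.4 to 77.1 CPM. FAM63B (ENSBTAG00000012391), a deubiquitinase, was at 10.8 CPM against 14.5 to 30.4 CPM. TSG101 (ENSBTAG00000013563), the ESCRT subunit that sorts ubiquitinated cargo, and KLHL29 (ENSBTAG00000021969), a kelch-like protein, had 3 counts each (2.5 CPM) against 4.97 to 13.4 CPM and 3.73 to 17.2 CPM.

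The 6 genes of metabolism and mitochondria were the most mixed, with 3 lowest and 1 highest in 4122_2. NDUFA4 (ENSBTAG00000011145), a subunit of cytochrome c oxidase, was at 65.0 CPM there against 22.4 to 47.2 CPM in the others, 173% of their median with an interval of 137% to 216%. ACOT11 (ENSBTAG00000039686), an acyl-CoA thioesterase, was at 5 CPM against 5.40 to 30.2 CPM, and PHYKPL (ENSBTAG00000013628), an enzyme of hydroxylysine breakdown, was at 5 CPM against 5.84 to 19.9 CPM. RSAD1 (ENSBTAG00000021303), a radical SAM protein, had 3 counts against 6.56 to 14.7 CPM. PLCD3 (ENSBTAG00000006052), a phospholipase C, was at 8.34 CPM, just above the lowest of the others at 8.09 CPM. HILPDA (ENSBTAG00000031863), a hypoxia-induced protein of lipid droplets, had 0 counts in 4122_2 but was also at 0 in another calf, and reached 5.93 CPM at most.

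All 10 genes of membrane, receptor and synapse proteins were lowest in 4122_2, 5 of them with 0 counts. VSTM5 (ENSBTAG00000002751), a V-set transmembrane protein, had 0 counts against 2.15 to 13.3 CPM, at least 2.35-fold below the median. MEGF10 (ENSBTAG00000000329), an engulfment receptor, had 0 counts against 1.58 to 8.69 CPM, GRIK3 (ENSBTAG00000009269), a kainate receptor subunit, 0 counts against 1.45 to 6.33 CPM, and VWA2 (ENSBTAG00000006860), an extracellular matrix protein, 0 counts against 0.674 to 7.92 CPM. KCNH6 (ENSBTAG00000016613), a potassium channel, had 0 counts against a median of 2.40 CPM, a level below 3 counts in the library of 4122_2, so no fold can be given. Of the genes with counts, GRK3 (ENSBTAG00000000005), a kinase of G protein-coupled receptors, was at 14.2 CPM against 20.3 to 39.5 CPM, and PPFIA3 (ENSBTAG00000002844), a liprin of the presynaptic zone, at 5 CPM against 8.09 to 24.9 CPM. MEGF9 (ENSBTAG00000013706) had 2 counts against 7.31 to 17.3 CPM, DUSP14 (ENSBTAG00000010279), a dual-specificity phosphatase, 2 counts against 4.35 to 9.93 CPM, and TMEM80 (ENSBTAG00000009032) 3 counts against 4.49 to 12.1 CPM.

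In the last named group, 6 of 7 genes were lowest in 4122_2 and 3 of them had 0 counts. SCRN2 (ENSBTAG00000001828), a secernin, had 0 counts against 2.18 to 10.6 CPM, at least 2.74-fold below the median. ZC3HAV1L (ENSBTAG00000014250), a relative of the zinc-finger antiviral protein, had 0 counts against 2.74 to 8.96 CPM, at least 2.29-fold below. HSF2BP (ENSBTAG00000017407), a partner of heat shock factor 2 with a role in meiotic recombination, had 0 counts against 0.842 to 8.31 CPM, at least 1.49-fold below. POLL (ENSBTAG00000003576), the repair polymerase lambda, had 2 counts (1.67 CPM) against 5.41 to 15.2 CPM, 16.8% of the median with an interval of 2.04% to 60.8%. FAM13C (ENSBTAG00000017540) had 3 counts (2.5 CPM) against 6.53 to 14.9 CPM, 24.5% of the median with an interval of 5.04% to 71.5%. URGCP (ENSBTAG00000009453), named for promoting cell proliferation, was at 10 CPM against 17.7 to 34.8 CPM. C11H9orf50, an open reading frame without a known role, went the other way, with 5 counts (4.17 CPM) in 4122_2 and 0 to 1.21 CPM in the others.

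The 7 members without a symbol were all lowest in 4122_2. ENSBTAG00000024021 had 1 count (0.834 CPM) against 5.90 to 20.4 CPM, 7.87% of the median with an interval of 0.199% to 43.8%. ENSBTAG00000014319 and ENSBTAG00000047761 had 0 counts against 0.983 to 7.27 CPM and 1.68 to 9.35 CPM, and ENSBTAG00000000195 had 2 counts against 3.95 to 10.3 CPM. The remaining ones were better counted, ENSBTAG00000000256 at 13.3 CPM against 16.3 to 32.7 CPM, ENSBTAG00000014593 at 9.17 CPM against 13.1 to 31.2 CPM, and ENSBTAG00000038926 at 6.67 CPM against 8.99 to 23.4 CPM.

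**Figure D2:**
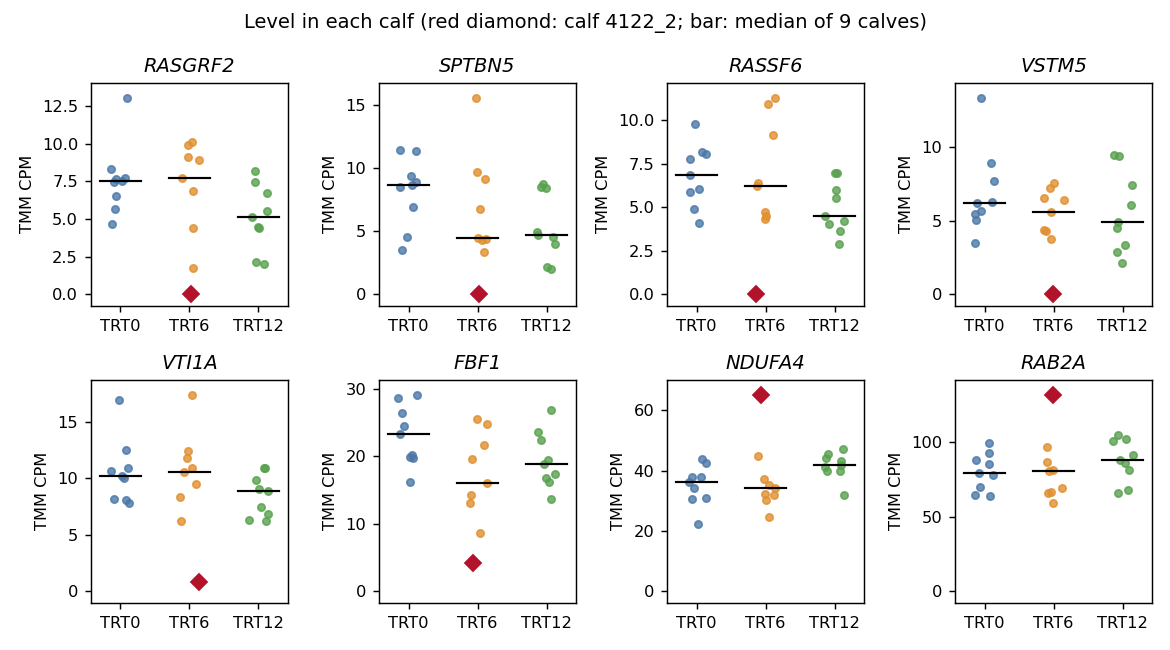
TMM CPM (y axis, linear, starting near 0) of 8 Lightgreen genes in each of the 27 calves by treatment (x axis), with calf 4122_2 as a red diamond and a bar at the median of the 9 calves. The diamond lay below all other calves in RASGRF2, SPTBN5, RASSF6, VSTM5, VTI1A and FBF1, and above them in NDUFA4 (65.0 CPM) and RAB2A (132 CPM).

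The correlation between members was much lower without that calf. Over 27 calves the 1891 pairs of members had a mean Pearson r of 0.407 and a mean absolute r of 0.519 on the log2(CPM + 1) scale, and 1006 pairs (53.2%) had r above 0.5. Without 4122_2 the mean r was 0.119 and the mean absolute r was 0.228, and 108 pairs (5.71%) remained above 0.5, all of which were also above it with 27 calves. The absolute r was smaller without the calf in 1839 of the 1891 pairs, and 469 pairs changed sign. For comparison, all pairs of the 13943 tested genes had a mean absolute r of 0.214 over 27 calves and 0.215 without 4122_2, with 3.02% and 3.06% of pairs above 0.5. The mean r of all pairs of tested genes was 0.000666 over 27 calves and 0.000613 without 4122_2, so the mean r of the members stayed above it in both sets. On CPM without TMM factors the members stood further above, with a mean absolute r of 0.576 over 27 calves and 0.326 without 4122_2, beside 0.224 and 0.226 for all tested genes. With Spearman's coefficient, which limits the weight of a single calf, it was 0.274 over 27 calves and 0.230 without 4122_2, beside 0.210 and 0.211. Leaving out any other single calf gave a mean absolute r between 0.519 and 0.533.

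**Figure D3:**
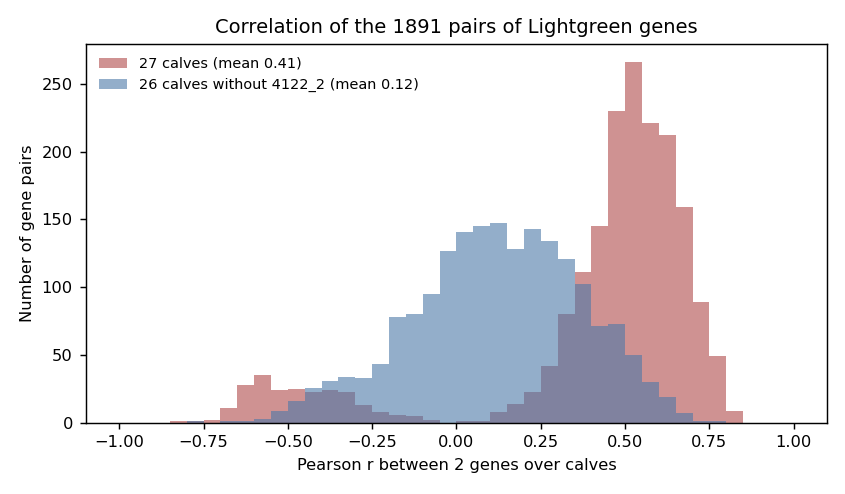
Number of gene pairs (y axis) by Pearson r of log2(TMM CPM + 1) between 2 Lightgreen genes (x axis) for all 1891 pairs, over 27 calves (red) and over the 26 calves without 4122_2 (blue). The mean r was 0.41 with the calf and 0.12 without it.

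The Greenyellow and Red modules were compared in the same way. The 264 genes of the Greenyellow module had a mean absolute r of 0.315 over 27 calves and 0.322 without 4122_2, and the 863 genes of the Red module 0.326 and 0.294. For the Lightgreen members the drop was seen in every role group. The mean r went from 0.553 to 0.129 in the cilium, centrosome and Hedgehog group, from 0.543 to 0.136 in the ubiquitin and endosome group, from 0.496 to 0.073 in the membrane, receptor and synapse group and from 0.543 to 0.299 in the chromatin and transcription group. It went from 0.203 to 0.069 among genes of small GTPases and the cytoskeleton, from 0.155 to 0.082 in metabolism and mitochondria, from 0.311 to 0.102 in DNA repair and other roles, and from 0.635 to 0.365 in the genes without a symbol, which kept the highest mean.

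Some pairs remained correlated without the calf. VWA2 and PPFIA3 had the highest r in both sets, 0.845 over 27 calves and 0.754 over 26. PLCD3 and ACOT11 followed without the calf (0.791 over 27 calves and 0.740 over 26), and then POGK and VWA2 (0.797 and 0.693). The most negative pair was RAB2A and SPTBN5, at -0.842 over 27 calves and -0.787 over 26. Other pairs depended more on the calf, such as ZC3HAV1L and TULP3, with r of 0.810 over 27 calves and 0.480 over 26. POLL and FBXW4 went from 0.816 to 0.497. These genes are close neighbours, with 1 protein-coding gene, DPCD, between them in the RefSeq gene order of the ARS-UCD2.0 assembly, in which 54 members were found by symbol. That assembly is not the build of the counts, so no positions are given.

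The eigengene showed the same dependence. It held 53.4% of the variance of the members over 27 calves and 23.2% over the 26 without 4122_2. The value of 4122_2 was -0.878, while the other calves lay between -0.143 and 0.200. Calf 4122_2 contributed 77.0% of the squared values of the eigengene, and no other calf more than 4.01%. The absolute correlation of a member with the eigengene was above 0.7 for 41 members over 27 calves and for 7 over 26, each with the eigengene of the same calves. The lowest were 0.481 for HILPDA, 0.489 for CNN3 and -0.541 for RACGAP1 over 27 calves. ENSBTAG00000024021 (0.856), FAM13C (0.852) and POLL (0.841) had the highest. Over 26 calves RAB2A had the strongest relation, at -0.787, followed by ENSBTAG00000014319 (0.749) and SPTBN5 (0.743), while CNN3 had the weakest, at 0.049.

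**Figure D4:**
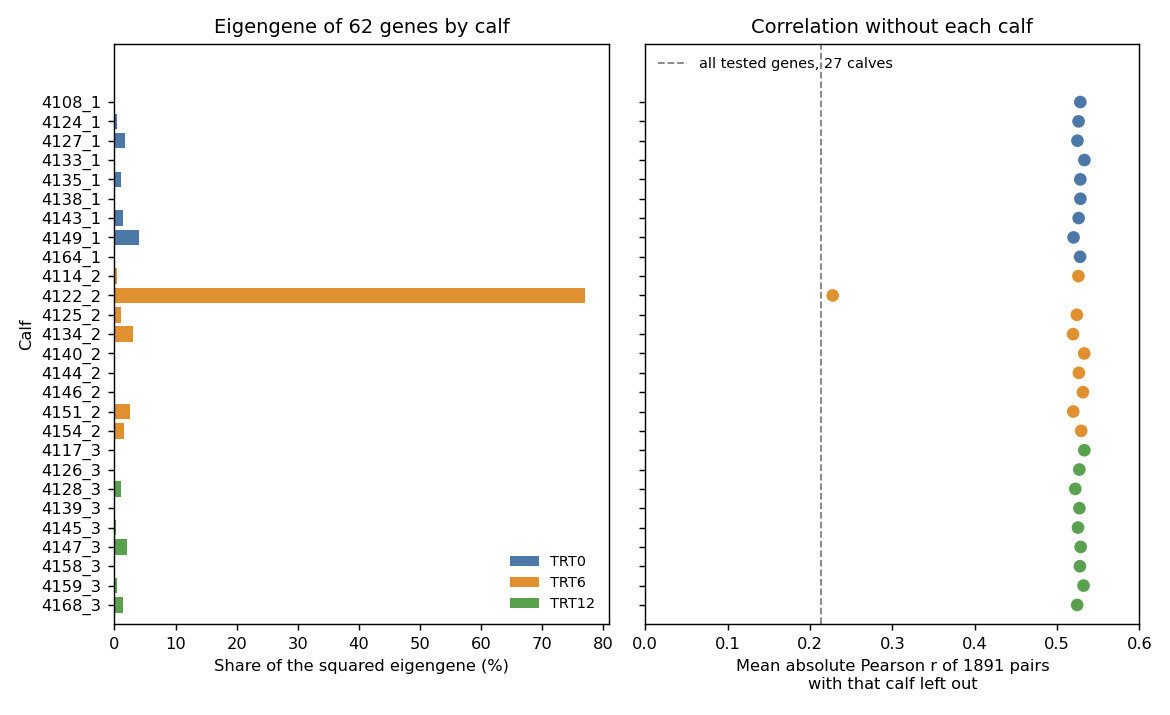
Left, share of the squared values of the eigengene (x axis, percent) held by each calf (y axis), coloured by treatment; right, mean absolute Pearson r of the 1891 pairs with that calf left out (x axis), with a dashed line at the value for all tested genes (0.214). Calf 4122_2 held 77.0% of the squares, and leaving it out gave 0.228 against 0.519 to 0.533 for each of the others.

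Many genes outside the module followed the eigengene as closely as its members. Over 27 calves, 56 tested genes that were not members had a higher absolute correlation with it than the median member (0.736), and 1957 a higher one than the lowest member. Those with the highest were ENSBTAG00000012274 (0.855), ENSBTAG00000003447 (0.837), ENSBTAG00000002640 (0.832), ENSBTAG00000009049 (0.829) and ENSBTAG00000026919 (0.815), and each was below all other calves in 4122_2. For ENSBTAG00000026919, at 0 CPM in 4122_2 against 5.84 to 19.2 CPM in the others, the correlation with the eigengene of the 26 calves was 0.0116. Over 26 calves, 3592 genes that were not members exceeded the median member (0.438). Those with the highest absolute value were COPZ1 (-0.931), a subunit of the COPI coat, ENSBTAG00000002640 (0.919), ENSBTAG00000010439 (0.914), YWHAE (-0.908), a 14-3-3 protein, and RPN2 (-0.901), a subunit of oligosaccharyltransferase. COPZ1, YWHAE and RPN2 are listed in the Red module.

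The design asks whether the time of first colostrum changed the levels of these genes. With edgeR's quasi-likelihood test and Benjamini-Hochberg adjustment over 13943 genes, 0 members and 0 genes (0% of those tested) passed an adjusted p of 0.10 with a fold change of 1.2 or more in TRT6 vs. TRT0, in TRT12 vs. TRT0 or in TRT12 vs. TRT6. DESeq2 called 0, 38 and 2 genes in these contrasts and 0 members in each. At an unadjusted p under 0.05, 4 of 61 members were lower and 0 higher in TRT6 vs. TRT0, beside 1.67% and 1.57% of all tested genes. In TRT12 vs. TRT0, 3 members were lower and 0 higher, beside 4.32% and 5.31%, and in TRT12 vs. TRT6, 2 were lower and 0 higher, beside 1.77% and 1.49%. The 8 members concerned were spread over the role groups, with none from small GTPases and the cytoskeleton or from metabolism and mitochondria.

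The member with the lowest unadjusted p in TRT6 vs. TRT0 was HSF2BP, with levels of 2.67 to 8.31 CPM in TRT0 (median 4.06), 0 to 4.33 CPM in TRT6 (median 2.46) and 2.81 to 5.40 CPM in TRT12 (median 3.86). The treatments overlapped, and the log2 fold change was -0.89 (SE 0.29, edgeR adjusted p = 1). Without 4122_2 it was -0.77 (edgeR adjusted p = 1). The other members at this level were ENSBTAG00000024021 (log2 fold change -0.64), FBF1 (-0.43) and FBXW4 (-0.32). Of these 4 members, HSF2BP and ENSBTAG00000024021 kept an unadjusted p under 0.05 without 4122_2.

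In TRT12 vs. TRT0 the lowest p belonged to ENSBTAG00000014319, at 2.02 to 7.27 CPM in TRT0 (median 4.07), 0 to 6.20 CPM in TRT6 (median 1.93) and 1.12 to 3.03 CPM in TRT12 (median 2.15). The range of TRT12 began below that of TRT0 and overlapped its lower part, and the log2 fold change was -1.01 (SE 0.33, edgeR adjusted p = 0.404). MBD5 had a log2 fold change of -0.30 (edgeR adjusted p = 0.456) in TRT12 vs. TRT0. VWA2 had the lowest p in TRT12 vs. TRT6, with 2.03 to 6.75 CPM in TRT0 (median 3.26), 0 to 7.92 CPM in TRT6 (median 4.97) and 0.674 to 3.93 CPM in TRT12 (median 2.58). The 8 TRT6 calves other than 4122_2 started at 2.89 CPM, so their range overlapped that of TRT12, and the log2 fold change was -0.81 (SE 0.33, edgeR adjusted p = 1).

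By their medians, the members lay slightly below 0 in each contrast. The median log2 fold change of the 61 tested members was -0.10 in TRT6 vs. TRT0, -0.18 in TRT12 vs. TRT0 and -0.07 in TRT12 vs. TRT6, while the medians of all tested genes were 0.00709, -0.00502 and -0.00316. Members with a fold change below 0 numbered 41, 49 and 38 of 61, and 48.2%, 50.8% and 50.8% of all tested genes were below 0. The 3 contrasts share their calves, and the members move together by the way they were chosen, so these counts are not independent of each other. Without 4122_2 the medians were -0.01, -0.18 and -0.15, and 2, 8 and 7 members were lower at an unadjusted p under 0.05, beside 1.48%, 4.57% and 2.84% of all tested genes, with 1 member higher in each contrast, beside 1.33%, 5.58% and 3.03%. The higher member was ENSBTAG00000000256 in TRT6 vs. TRT0 and NDUFA4 in the other 2 contrasts. Calf 4122_2 belongs to TRT6, so in TRT12 vs. TRT0 the calves compared were the same with and without it. A fit of TRT12 and TRT0 alone also had 8 members lower and 1 higher, beside 10.3% of all tested genes in either direction. In TRT12 vs. TRT6 the 7 lower members included VWA2, TTBK2, PHYKPL, KIAA0556, ENSBTAG00000014319 and SUFU, with an edgeR adjusted p of 0.772 or more. No member was called in any contrast without the calf.

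**Figure D5:**
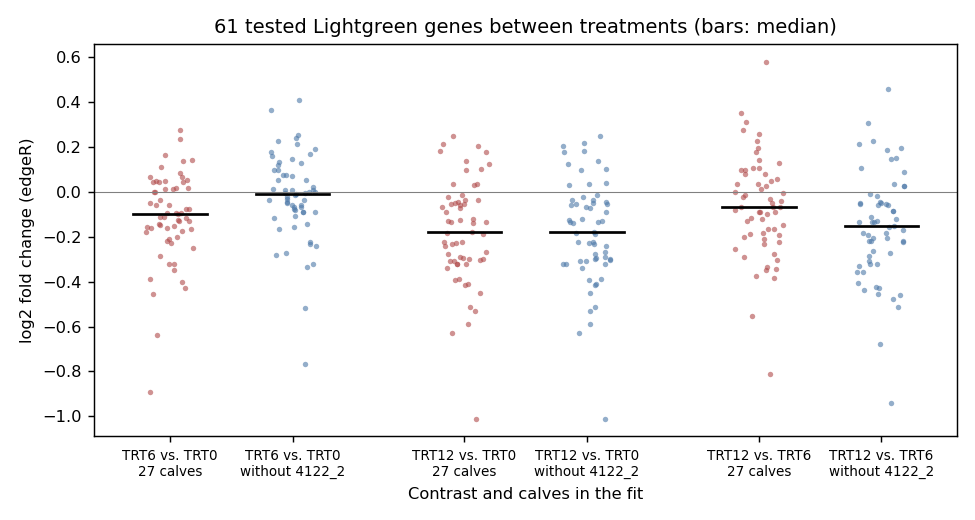
edgeR log2 fold change (y axis) of the 61 tested Lightgreen genes in each contrast (x axis), fitted with 27 calves (red) and without calf 4122_2 (blue); points are genes and bars their median. The median of TRT6 vs. TRT0 was -0.10 with the calf and -0.01 without it, and the median of TRT12 vs. TRT0 was -0.18 in both fits.

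Other members with large differences in 4122_2 overlapped between treatments in the rest of the calves. RASGRF2 was at 4.67 to 13.03 CPM in TRT0 (median 7.55), at 1.73 to 10.1 CPM in the 8 TRT6 calves other than 4122_2, and at 2.02 to 8.17 CPM in TRT12 (median 5.15). SPTBN5 was at 3.50 to 11.4 CPM in TRT0 (median 8.67), at 3.37 to 15.5 CPM in those 8 TRT6 calves, and at 2.02 to 8.70 CPM in TRT12 (median 4.65). The log2 fold changes of RASGRF2 and SPTBN5 in TRT12 vs. TRT0 were -0.51 and -0.59 (edgeR adjusted p = 0.593 and 0.575). NDUFA4 was at 22.4 to 43.8 CPM in TRT0 (median 36.1), at 24.6 CPM or more in TRT6 (median 34.1) and at 32.02 to 47.2 CPM in TRT12 (median 41.8). RAB2A had medians of 79.1, 80.6 and 87.9 CPM in TRT0, TRT6 and TRT12, and did not pass the test in any contrast.

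The remaining members described by treatment are given by their medians. SCRN2 had medians of 7.05, 6.93 and 6.00 CPM in TRT0, TRT6 and TRT12, RASSF6 of 6.84, 6.20 and 4.49 CPM, VSTM5 of 6.23, 5.60 and 4.94 CPM, and ZC3HAV1L of 5.66, 6.06 and 5.40 CPM. For VTI1A they were 10.2, 10.6 and 8.82 CPM, for ENSBTAG00000024021 14.2, 8.70 and 9.44 CPM, for POLL 11.4, 8.66 and 9.70 CPM and for FAM13C 11.4, 10.9 and 9.44 CPM. Among the abundant members they were 60.7, 58.5 and 55.9 CPM for ARIH1, 54.2, 52.2 and 50 CPM for MSL1, 50.2, 51.1 and 47.6 CPM for POGK, 42.9, 44.0 and 38.7 CPM for TADA3 and 43.2, 48.6 and 37.7 CPM for KIAA0556. RACGAP1 had medians of 34.1, 31.0 and 34.4 CPM, CNN3 of 23.99, 23.6 and 24.7 CPM, HILPDA of 2.74, 3.37 and 2.70 CPM, and C11H9orf50 of 0.406, 0.620 and 0.562 CPM. In each of these genes the ranges of the 3 treatments overlapped.

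Without 4122_2, the eigengene of the 26 calves was lowest in TRT12, where it ran from -0.434 to 0.145 (median -0.172). It ran from -0.0896 to 0.377 in TRT0 (median 0.0940) and from -0.200 to 0.320 in the 8 TRT6 calves (median 0.0876), so the treatments overlapped, and no test was made because the eigengene is built from these values. The libraries fell into 3 sets by their run names, with 11, 11 and 5 calves and all treatments in each. The medians of the same eigengene over these sets were -0.0344, 0.124 and -0.0896. Within the first set it was lower in TRT12 (median -0.104, 4 calves) than in TRT0 (0.0355, 2 calves) and TRT6 (0.0121, 4 calves), and within the second set the medians of TRT12, TRT0 and TRT6 were -0.137 (3 calves), 0.205 (5 calves) and 0.124 (3 calves). In the third set they were -0.245 (2 calves), -0.0659 (2 calves) and 0.169 (1 calf). Calf 4122_2 belonged to the first set, and 58 members were lower in it than in each of the other calves of that set.

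Marker genes of tissue composition were compared between 4122_2 and the other calves, as far as their symbols could be matched to identifiers. The summed level of 2 goblet cell genes out of 6 listed was 1280 CPM in 4122_2 and 294 to 982 CPM in the others, of which AGR2, a disulfide isomerase of secretory cells, was at 1191 CPM against 250.3 to 888 CPM, while TFF3, a trefoil peptide of mucus, was inside the range at 89.2 CPM against 34.7 to 115.7 CPM. The summed level of 2 of 5 genes of proliferating cells was also the highest, 294.2 CPM against 166.6 to 292 CPM, with PCNA at 85.9 CPM against 34.8 to 79.04 CPM and TOP2A inside the range at 208 CPM against 131 to 212.5 CPM. The other lists lay inside the range of the other calves. Counted from the lowest of 27 calves, 4122_2 stood 20th for epithelium (6 of 7 genes found), 18th for colonocytes (5 of 6), 12th for enteroendocrine cells (2 of 5), 15th for smooth muscle (6 of 6), 14th for fibroblasts (5 of 5), 4th for endothelium (3 of 5), 24th for leukocytes (1 of 7), 19th for enteric neurons and glia (4 of 7), 9th for small intestine (3 of 7) and 10th for adipocytes (1 of 4), and no erythroid gene of 4 was found. Single genes outside the range included SNAP25 of neurosecretory cells, at 15 CPM against 4.47 to 13.4 CPM, and APOA1, a small intestinal apolipoprotein, at 20 CPM against 26 to 151 CPM. Whether these differences had a part in the low levels of the members was not tested. No gene of these lists passed the test in any contrast.

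Genes of the pathways represented in the module, but not its members, were compared in the same way. Of 26 listed genes of the Hedgehog pathway and primary cilium, 5 could be found by symbol and 2 of them were lowest there, including RPGRIP1L, a transition zone protein, at 2.5 CPM against 3.16 to 12.4 CPM. Of 16 genes of lymphoid cells and the circadian clock, 2 were found, both of them clock genes, so lymphoid cells were not covered. NR1D2, a clock repressor, was lowest, at 13.3 CPM against 14.5 to 35.4 CPM, and the other gene lay inside the range. The sum of these 2 genes was 58.3 CPM in 4122_2 and 60.1 to 139 CPM in the others, while the sums of the other 4 pathway lists lay inside the range of the others, 9th from the lowest for the Hedgehog pathway and cilium, 11th for the SAGA, MSL and ING complexes, 17th for hypoxia and 21st for ESCRT and ubiquitin ligation. Of 18 genes of SAGA, MSL and ING complexes, 4 were found, and the acetyltransferase gene KAT6A was lowest, at 57.5 CPM against 74.0 to 117 CPM. None of 7 found of 16 hypoxia genes and none of 2 found of 17 ESCRT and ubiquitin ligation genes was outside the range of the other calves. None of the genes of these 5 lists passed the test in any contrast.

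The library of 4122_2 was also among those with few counts. It held 286 tested genes at 0 counts, and the others 7 to 244. The share of its counts in the 10 highest genes was 37.9%, inside the range of the others (30.6% to 43.1%). It also had the fewest genes at 1 CPM or more, 13707 against 13822 or more in each of the others. The other 4 libraries with the lowest totals were 4154_2 (1163791 counts) and 4146_2 (1274767) of TRT6, and 4117_3 (1314579) and 4159_3 (1364047) of TRT12. Of these, 4117_3 had 1 member at 0 counts and held the lowest level of 1 member, and the other 3 had 0 members in both respects. The median member lay at 0.171, 0, -0.121 and -0.119 from its median over 27 calves in these 4 calves on the log2(CPM + 1) scale.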

How the data were processed

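RNA sequencing of colon tissue from 27 calves was used, 1 library per calf. The authors deposited raw counts per Ensembl gene, made with TopHat2 2.1.1 on the UMD 3.1 build, SAMtools 1.4 and HTSeq, per the submitters' processing notes and the study's methods. Reads assigned to several genes were left out there, and the strand setting is not given in the sources used here, so overlapping genes are uncertain.

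From the counts, TMM factors and contrasts of the 3 treatments were computed with edgeR 4.0.16 (R 4.3.3), in 1 quasi-likelihood fit of 27 calves. To be tested, a gene had to reach 1 CPM in 5 or more calves of every treatment (13943 genes), and calls needed an adjusted p of 0.10 (Benjamini-Hochberg) and a fold change of 1.2. The common biological coefficient of variation was 0.221. Levels were compared on log2(CPM + 1). On simulated counts for TRT6 vs. TRT0 over 13943 genes, 87% of 2-fold and 100% of 4-fold changes were recovered, with 25 false calls. The simulation gave every gene the same dispersion and drew the changed genes from all tested genes. Its recovery therefore need not hold for the members, whose median level was lower. Correlation, eigengene and ranks used Python 3.11.15 (pandas 2.3.3, numpy 2.4.6, scipy 1.17.1, matplotlib 3.10.9).

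Treatments came from the labels. Dam parity is not given there and was not used. Some genes, 1 member among them, are not reported here by name. Symbols came from the study's gene lists (4046 identifiers). The members, the marker and pathway lists and the tests were chosen with earlier results of these data known. Levels by treatment are given for members chosen by rule, for most of them as medians only. These are the 8 members furthest above and the 8 furthest below the others' median in 4122_2, and the 5 most abundant. Those lowest in p in a contrast, and the 3 most and 3 least like the eigengene over 27 calves, were also included. Other members named with test values were chosen after their values were seen. Only 4 members lay above the median of the other calves, so the 8 furthest above include the 4 least far below. The alternatives were DESeq2 1.42.0, a likelihood ratio test, other scalings, filters and thresholds, the run set as covariate, other pseudocounts and coefficients, and leaving out calves. Intervals and the limit of 3 counts cover counting error only.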

Additional observations from a re-analysis of the deposited data

Results flagged for a closer look

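In 81 groups of 9 calves (the 24 members described by treatment, the eigengene, the median deviation of the members and the library total, each in 3 treatments), the calf at either end was compared with its nearest neighbour as a share of the range, on the log2(CPM + 1) scale for genes. In 20 of them that share was above Dixon's 95% critical value, used here only as a flag, and 18 of the 20 were calf 4122_2 in TRT6. The module was built from these same libraries, and many of the 24 members were picked for their distance in 4122_2. These counts are thus a description and cannot be set against a chance rate.

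Members that stood apart in TRT6 with 0 CPM in 4122_2 were SCRN2 (0 CPM), SPTBN5 (0 CPM), RASSF6 (0 CPM), VSTM5 (0 CPM), ZC3HAV1L (0 CPM), HILPDA (0 CPM) and VWA2 (0 CPM). VTI1A and ENSBTAG00000024021 stood apart at 0.834 CPM each, POLL at 1.67 CPM and FAM13C at 2.5 CPM. Of the abundant members, MSL1 (37.5 CPM), ARIH1 (36.7 CPM) and KIAA0556 (22.5 CPM) were far below the other TRT6 calves. RACGAP1 (44.2 CPM) was far above the other TRT6 calves. So was C11H9orf50 (4.17 CPM), the least abundant member, which had only 5 counts in 4122_2. The eigengene of 4122_2 was -0.878 and the median deviation of the members -1.56, both far below the other TRT6 calves.

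Other calves stood apart in 2 groups. NDUFA4 was at 32.02 CPM in calf 4158_3, the lowest of TRT12. KIAA0556 was at 55.03 CPM in calf 4149_1, the highest of TRT0.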

How the results depend on the processing

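No paired analysis was possible because the labels give no replicate numbers; those used here follow accession order, and calves that share one are unrelated by any label. Without TRT6 replicate 2, calf 4122_2, the mean absolute r of the members went from 0.519 to 0.228, the mean r from 0.407 to 0.119 and the share of variance in the eigengene from 53.4% to 23.2%; leaving out each calf in turn gave 0.228 to 0.533 and 0.119 to 0.419 for the first pair. The mean absolute r and mean r were 0.576 and 0.467 on CPM without TMM factors, 0.559 and 0.450 with a pseudocount of 0.25 CPM, 0.455 and 0.344 with 5 CPM, 0.373 and 0.265 without logs, and 0.274 and 0.189 with Spearman's coefficient. The mean r was 0.414 (mean absolute r 0.523) with values centred within run sets. Chosen after seeing the data, Spearman's coefficient without 4122_2 gave 0.230 and 0.121, and library totals without it 0.326 and 0.261. The eigengene held 59.2% on library totals, 57.6% and 47.2% with pseudocounts of 0.25 and 5 CPM, and 55.9% without scaling, with 64.2%, 80.9%, 70.1% and 78.9% of its squares in 4122_2. The number of members lowest in 4122_2 was 55 both on CPM without TMM factors and with DESeq2 size factors. It was 58 against its own run set alone and 58 against the other TRT6 calves alone. These comparisons use fewer calves, so the count could not fall in them. Members called numbered 0 in each of 9 alternatives per contrast. Genes called went from 0 to 1 with run set as covariate in TRT6 vs. TRT0, to 38 (DESeq2), 1 (likelihood ratio test) and 1 (run set) in TRT12 vs. TRT0, and to 2 (DESeq2) and 1 (no filter) in TRT12 vs. TRT6; the cause was not tested. Depth limits the low members, as 3 counts were 2.5 CPM in 4122_2.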
